A study of Mus musculus with 2 samples.

Results

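Binding of CTCF was described at 9 genes of the Hedgehog signalling pathway in newborn mouse lung: the receptor Ptch1, the co-receptors Boc and Gas1, the ligand-binding antagonist Hhip, the transducer Smo, the inhibitor Sufu and the transcription factors Gli1, Gli2 and Gli3. They share known roles in the pathway, and the rule that names them uses no measured value, although earlier results of these data were known when they were chosen. They are 9 of 21646 protein-coding genes of GENCODE M21 on chromosomes 1 to 19 and X. Sites came from the optimal IDR list (peaks that met a limit on irreproducibility), and a listed site need not have a peak in each replicate's own list. A site was taken if its summit lay within 1000 bp of a transcription start site (TSS) of a protein-coding transcript of these genes. Sites elsewhere in the gene body or within 50000 bp outside the gene were also taken. This gave 92 of 64732 sites, with 11 at promoters, 35 in bodies and 46 in flanks.

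The study consists of CTCF ChIP-seq on whole lung of B6NCrl mice at postnatal day 0, with sex recorded as not collected. There was 1 group of 2 replicates and no comparison group. The labels give a single biosample and donor for both replicates, so they may share 1 piece of tissue and their spread may be technical. No genetic change or treatment is labelled, a possible control experiment is named in the labels, and the peak lists hold no expression by which the tissue label could be checked. With 1 group, no test between conditions was possible, and counts were set beside those of all genes or all sites.

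CTCF recognises a long, directional DNA motif through its zinc fingers and halts cohesin, so that its sites anchor many chromatin loops, most often where a pair of motifs point towards each other. In the Hedgehog pathway, a secreted ligand binds Ptch1 with help from Boc and Gas1, which relieves the block on Smo in the primary cilium and frees Gli proteins from Sufu. In the lung, Sonic hedgehog made by the epithelium signals to the mesenchyme during branching, and Ptch1, Hhip and Gli1 are themselves targets of the signal.

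Of the 92 sites, 29 held the 12-base core of the CTCF motif no farther than 50 bp from the summit and with at most 1 mismatch, and 7 of these had no mismatch. Those 7 are shown because they are the closest matches at these genes, and they include the sites at the Gli1 promoter, upstream of Gli2 and beyond the 3′ end of Boc. Sequences here and below are from the RefSeq copy of GRCm38 (the mm10 assembly) and run 5′ to 3′ on the strand named. These are 30 bases each, on the strand that carries the core, with its 12 bases in capitals.

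Gli1 promoter, chr10:127342473-127342502, minus strand: ctaggacgaCCAGCAGAGGGCgcgaaaagc
Gli2 upstream, chr1:119087713-119087742, plus strand: gcatcttatCCACCAGGTGGCgatctaatg
Gli2 upstream, chr1:119083839-119083868, minus strand: caaattacaCCACCAGAGGGCagaagaaaa
Gli2 upstream, chr1:119075072-119075101, plus strand: accccttctCCACTAGGGGGCcccatctct
Gli3 intron, chr13:15715317-15715346, minus strand: actgtctagCCAGTAGATGGCaggtccgag
Sufu intron, chr19:46444421-46444450, minus strand: aggaagagtCCAGTAGGTGGCaccgttgct
Boc downstream, chr16:44484253-44484282, plus strand: tcctttccaCCAGCAGATGGCggccttatc

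A further set is shown because it holds some of the strongest sites at these genes while lacking the core at that limit. The capitals mark the core positions of the highest-scoring alignment to a 20-base weight matrix. That alignment passed the matrix threshold of 13.0 at the Sufu promoter alone, with a score of 14.4. The scores of 8.13 at Gas1, 1.96 at Gli3 and 1.12 in the Sufu intron were below it, so those capitals mark no motif match.

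Gas1 upstream, chr13:60178651-60178680, plus strand, 2 mismatches: agcttttggCCACTAGAGGCAccgcgagtc
Gli3 downstream, chr13:15759281-15759310, minus strand, 3 mismatches: cgcatgtcgCCGCGCGGTGGCggaagcagc
Sufu intron, chr19:46452666-46452695, minus strand, 3 mismatches: tcattataaCAGCTAGAGGGGgccatcgcc
Sufu promoter, chr19:46396736-46396765, plus strand, 2 mismatches: ttcctcctaACACTAGGGGGAggccaagat

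Promoter sites were found at 6 of the 9 genes, namely Gli1, Gli2, Ptch1, Sufu, Hhip and Gas1 (66.7%, Wilson 95% interval 35.4 to 87.9%), against 39.8% of all protein-coding genes, a share inside that interval. Gli3, Smo and Boc had none, and the same 3 genes still had none within 5000 bp of a TSS. A site in the body outside promoters was present at 9 of 9 genes, against 47.3% of all genes, and these genes are long, with a median of 73849 bp against 17385 bp over all protein-coding genes. Per length of body, the 9 genes together held 4.12 sites per 100 kb against 2.89 per 100 kb over all genes. Single genes ranged from 2.17 at Hhip to 33.8 at Gas1. Gli2, Gli3, Hhip and Boc were below 2.89, and Gli1, Ptch1, Smo, Sufu and Gas1 were above it. A site within 50000 bp outside the gene was present at 9 of 9, against 84.8% of all genes. Counted over gene and flanks, the median density was 4.07 sites per 100 kb at these genes (2.45 to 14.1) and 4.54 per 100 kb over all genes.

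The signal of a site is the peak caller's own value, with a scaling that no label or file header names, so it ranks sites within a list and carries no depth. The pooled signal had a median of 59.2 over the 92 sites, against 76.2 over all sites. By position, the medians were 63.0 at promoters, 37.7 in bodies and 115 in flanks. Values and counts by position are for the 92 sites only. None is given for all promoter, body or flank sites, so they do not show a trait of these genes. The highest 25% of all sites begins at a pooled signal of 207.854, and 23 of the 92 sites reached it, 4 at promoters, 4 in bodies and 15 in flanks. Such a site lay in or within 50000 bp of 7 of the 9 genes, all but Ptch1 and Hhip, against 70.5% of all genes.

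**Figure D1:**
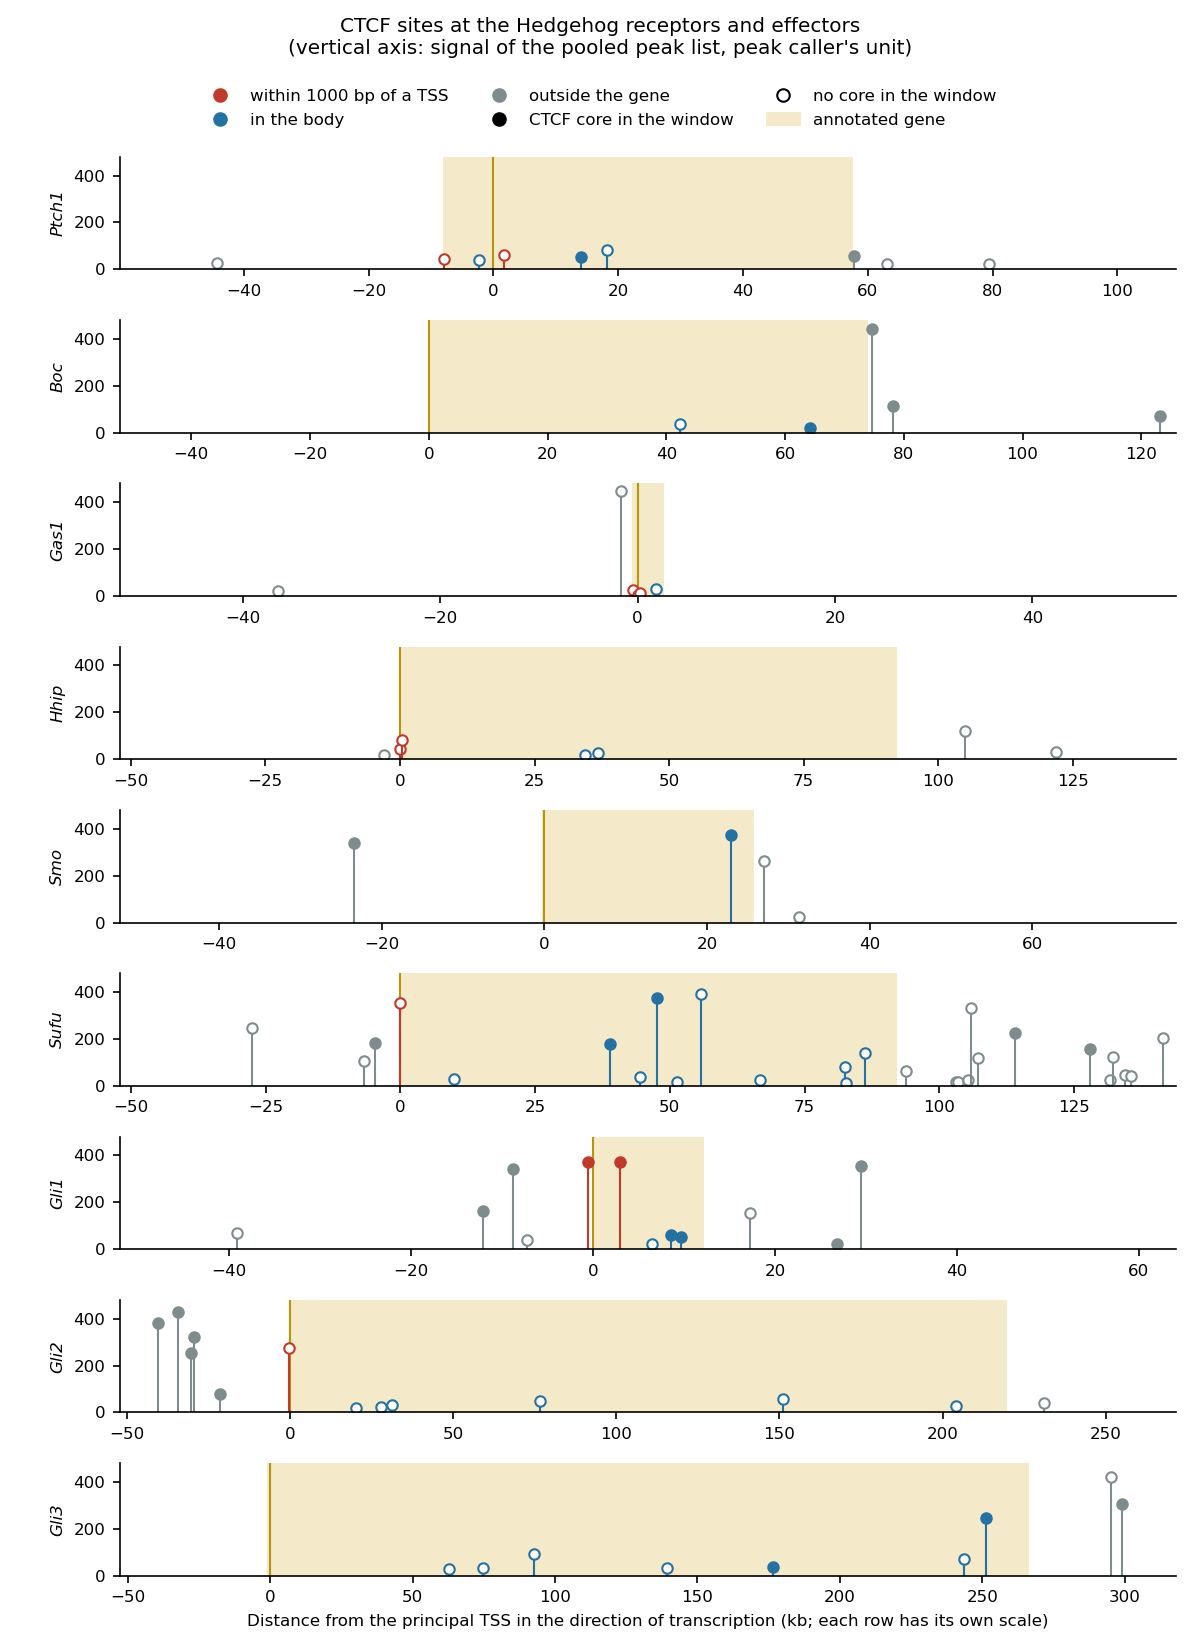
Pooled CTCF signal (vertical axis, peak caller's unit) at each site against distance from the principal TSS in kb, in the direction of transcription, for the 9 genes, with gene bodies shaded and filled points for sites with the core. The tallest sites stand outside the bodies of Gas1, Boc, Gli2 and Gli3 and inside those of Smo and Sufu, while no site of Ptch1 passes 83.5 and no site of Hhip passes 121.

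A peak of each replicate's own list lay within 100 bp of the summit at 86 of the 92 sites. At Sufu and Gas1, 3 sites lacked a replicate 1 peak and 3 others of the same genes lacked a replicate 2 peak, and the pooled signal of these 6 was at most 17.8. The median absolute log2 ratio of the replicates was 0.23 over the 86 sites, against 0.21 over all sites. At the 23 strongest sites it was 0.079 and no ratio passed 0.26, whereas over the 63 others it was 0.33 and reached 1.58. Replicate 1 was higher at 54 of 86 sites (62.8%), against 63.5% of all sites.

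**Figure D2:**
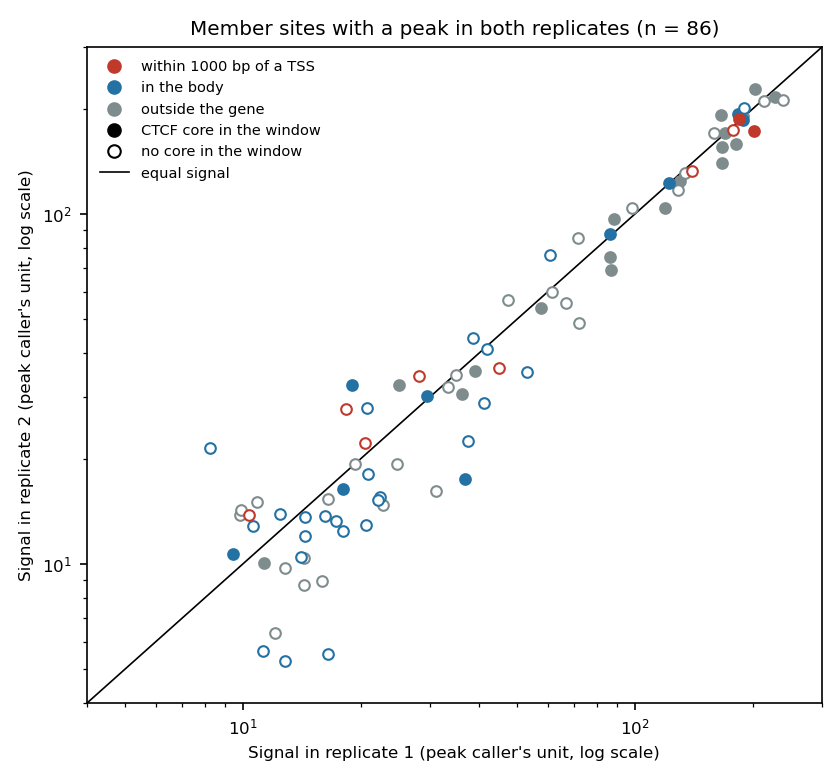
Signal in replicate 1 (horizontal) and replicate 2 (vertical), both on log scales in the peak caller's unit, for the 86 sites with a peak in both; the line marks equal signal. Strong sites lie close to the line, and the weakest sites scatter most, up to a log2 ratio of 1.58.

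Ptch1, the receptor that binds the ligand and holds Smo inactive, lies at chr13:63508328-63573598 on the minus strand. It had 9 sites, none of them among the highest 25% of all sites. The strongest, in intron 3, gave 38.7 in replicate 1 and 44.3 in replicate 2, with a pooled signal of 83.5. Of the protein-coding genes with a site in the gene or its flanks, 6.40% had a weaker strongest site. Ptch1 has several annotated starts, and its promoter sites marked alternative ones. A site 138 bp upstream of the outermost start, at position 63573598, had signals of 18.3 and 27.8. Another, 272 bp inside the start at 63564326 and 481 bp inside that at 63564535, had signals of 28.2 and 34.5. The principal transcript starts at position 63565735, and its nearest site lay 1681 bp away. A peak of the pooled list that was not in the optimal list lay 767 bp upstream of that start. Its signals were 12.5 in replicate 1 and 6.25 in replicate 2. Neither listed promoter site held the core, and both lay in windows of 66.3% GC. The core was present at 2 of the 9 sites, a weak one in intron 2 (36.8 and 17.4) and one 315 bp beyond the 3′ end of the gene (24.98 and 32.5). A further site lay in the neighbouring gene Fancc, a member of the Fanconi anaemia DNA repair pathway.

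Boc, a cell-surface co-receptor that binds the ligand, lies at chr16:44485049-44558897 on the minus strand. It had 5 sites, none at its single annotated start or upstream of it, and the nearest lay 42272 bp inside the gene. The strongest lay 784 bp beyond the 3′ end, with signals of 227 and 217 in replicates 1 and 2, and its core had no mismatch. This site ranked above 98.4% of all sites by pooled signal. The body held sites of 20.9 and 18.0 in intron 3 and of 9.46 and 10.7 in intron 8. A pair of sites in the neighbouring gene Cfap44 completed the locus, with signals of 57.6 and 53.8 at one and 36.2 and 30.6 at the other. The cores at the 3′ end and at both Cfap44 sites lay on the same strand, and the core in intron 8 faced the one at the 3′ end across 10468 bp.

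Gas1, a membrane-anchored co-receptor, lies at chr13:60174405-60177365 on the minus strand, and its 6 sites covered the widest range. The site 1302 bp upstream of the outermost start, at position 60177365, gave 239 in replicate 1 and 212 in replicate 2. Its pooled signal of 447 was the highest of the 92, and its rank was above 98.6% of all sites. It falls outside the 1000 bp limit, and it lies in an exon of the annotated long non-coding gene Gm48488, which runs the other way. The promoter sites themselves were weak, with pooled signals of 24.1, 5.80 and 10.8. The first, 72 bp upstream of the outermost start, gave 10.4 and 13.8. The other 2, inside the coding exon 60 and 289 bp past the start of the principal transcript, each had a peak in only 1 replicate, of 3.73 in replicate 2 and of 9.70 in replicate 1. Their pooled −log10 q-values were only 0.079 and 1.15. The promoter sites 72 bp upstream and 60 bp inside also lie within Gm48488, 755 and 199 bp from the start of that gene. The core was found at none of the 6 sites. None of the 3 promoter sites was in the conservative IDR list, so Gas1 counts among the genes with a promoter site in the optimal list alone.

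Hhip, a membrane protein that captures Hedgehog ligands, lies at chr8:79965851-80058006 on the minus strand. Of its 7 sites, 2 were at the promoter, 446 bp inside the start in exon 1 with signals of 45.0 and 36.3, and 81 bp upstream with 20.6 and 22.1. The strongest site lay 12790 bp beyond the 3′ end with signals of 72.1 and 48.8. The core was at none of the 7 sites at 1 mismatch, but the weight matrix passed its threshold at 2 of them, the strongest site (score 13.5) and a weak one in intron 4 (15.3). The window at the upstream promoter site held 14 CpG dinucleotides and 77.2% GC.

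Smo, the membrane protein that passes the signal on, lies at chr6:29735503-29761365 on the plus strand and had 4 sites, none at its start. The nearest to the protein-coding TSS was 22970 bp inside, in intron 9 close to the 3′ end, with signals of 189 and 186. The site upstream lay in the neighbouring gene Tspan33, which encodes a tetraspanin, and had signals of 169 and 170. Its core and that in intron 9 faced each other across 46419 bp, so that the start of Smo lay between them. A site 1337 bp downstream of the gene had signals of 134 and 131 and no core. All 3 were among the highest 25% of sites, and the last one, downstream, was weak, with 14.4 and 10.4.

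Sufu, which restrains Gli proteins in the cytoplasm, lies at chr19:46396896-46488804 on the plus strand and had 27 sites, the most of the 9 genes. Its density of 14.1 sites per 100 kb was above that of 96.8% of protein-coding genes. The promoter site lay 134 bp upstream of the outermost start, with signals of 177 and 173. It was within 1000 bp of 4 annotated protein-coding starts of Sufu that span 130 bp. A start of the neighbouring gene Actr1a lay 1015 bp from the same site, just beyond the 1000 bp limit. The best match to the core at this promoter site had 2 mismatches. The body held 10 sites, all in introns, and 2 stood out, one in intron 3 with signals of 183 and 193 and a core without mismatch, and one in intron 6 with 189 and 200 and no core. Another site, in intron 10 (60.8 and 76.5), lay 35 bp from the start of a non-coding Sufu transcript, which encodes no protein and was not counted as a promoter. The other 7 body sites had pooled signals of 12.5 to 177.

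Neighbouring genes contributed many of the Sufu flank sites. Upstream, sites lay in Mfsd13a (129 and 117) and in Actr1a, which encodes a subunit of the dynactin complex (88.3 and 96.9 at the stronger site). Downstream, the strongest lay in a coding exon of Trim8, a ubiquitin ligase, with 159 and 171. Sites in Arl3, a small GTPase of the cilium, reached 98.1 and 104.

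Gli1, an activator and itself a target of the pathway, lies at chr10:127329882-127341974 on the minus strand and had 12 sites, 2 at promoters. The first lay 518 bp upstream of the main start at position 127341974, which 2 protein-coding transcripts share, with signals of 184 and 187. The second lay in intron 2, 926 bp inside the alternative start at 127339959, with 201.3 and 173. Both ranked above 93.9% of all sites, and they held the only cores among the 11 promoter sites of the 9 genes. The cores faced each other across 3459 bp, and the main start of Gli1 lay between them, while the next cores on either side pointed away from this pair. These orientations cover listed sites with the core only. Listed sites nearer to the pair, 7220 bp upstream of the main start and in intron 9, lacked the core but passed the weight matrix (scores 16.0 and 16.3). Their matrix alignments pointed towards the pair, so the orientation of the next motif depends on the mismatch limit. Between the pair lay a weak peak with the core that was not in the optimal list (7.08 in replicate 1 and 9.27 in replicate 2). Over the 9 genes, neighbouring cores faced each other in 8 pairs, lay on the same strand in 7 and pointed apart in 6, so facing pairs were not the rule. This tally passed over sites with a matrix match but no core. It also passed over the Gli2 site 29184 bp upstream, where both strands matched equally well. The upstream core of Gli1, on the strand of the gene, is the first sequence printed above. That in intron 2, on the other strand, had 1 mismatch and is shown to complete the pair.

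Gli1 intron 2, chr10:127339010-127339039, plus strand: ctccagtgtCCACTAGAGGGAgacctcgtt

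Both sites also lie within Gm47200, a gene annotated as antisense to Gli1. The flanks of Gli1 held 7 sites, of which 4 lay within 1000 bp of a start of another gene: R3hdm2 (33.3 and 32.0), Inhbe (86.3 and 75.3), Arhgap9 (71.5 and 85.6) and Mars (166 and 191). Inhbe encodes an inhibin beta subunit, Arhgap9 a GTPase-activating protein and Mars the methionyl-tRNA synthetase. A coding exon of Inhbe carried a further strong site of 182 and 159.

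Gli2, the main activator of the pathway, lies at chr1:118834132-119053619 on the minus strand and had 13 sites. The promoter site lay 98 bp upstream of the outermost start at position 119053619 and 378 bp upstream of the inner start at 119053339, with signals of 140 and 133. It was the only strong Gli2 site without the core, and its best match had 4 mismatches. The sequence up to 50 bp on either side of its summit held 12 CpG dinucleotides and 65.3% GC. It is printed on the strand of the gene, with each CpG in capitals, to show the sequence under a strong promoter site in which the core was not found; that says only that those letters are not in this window.

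Gli2 promoter, chr1:119053667-119053767, minus strand: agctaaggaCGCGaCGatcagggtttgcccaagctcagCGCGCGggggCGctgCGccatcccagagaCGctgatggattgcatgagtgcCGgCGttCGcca

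Between 21477 and 40290 bp upstream of Gli2 lay 5 sites, all with the core. From the farthest to the nearest, the signals were 188 and 190, 202 and 228, 130 and 124, 167 and 155, and 39.1 and 35.6, so that 4 were strong in both replicates and the nearest was not. The best core was on the plus strand at the sites 40290, 34114 and 21477 bp upstream and on the minus strand at the site 30229 bp upstream, while that 29184 bp upstream matched equally well on both. The cores 34114 and 30229 bp upstream therefore pointed away from each other, and those 30229 and 21477 bp upstream faced each other. No site of the Gli2 body passed a pooled signal of 58.8, and none of the 6 held the core. The weight matrix passed its threshold at one in intron 1 (score 13.8) and one in intron 8 (13.2).

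Gli3, which is cut to a repressor when the pathway is silent, lies at chr13:15463235-15730026 on the plus strand. It had 9 sites, none at a promoter or upstream, and the nearest was 62685 bp inside from the start of the principal transcript. The first 6 sites of the body, in introns 2 to 10, were weak, with pooled signals of 30.8 to 91.6. The site in intron 12 gave 122 and 123 and held a core without mismatch. The strongest sites lay 29266 bp and 33177 bp beyond the 3′ end, with 213 and 211 at the first and 167 and 140 at the second. The first held 10 CpG dinucleotides and no core, and the second held a core on the same strand as that in intron 12.

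With at most 1 mismatch allowed, the core was less frequent at the 92 sites than in the list as a whole. It was present at 29 of 92 (31.5%, Wilson 95% interval 22.9 to 41.6%), against 48.3% of all sites. With 2 mismatches allowed the shares were 70.7% (60.7 to 79.0%) at the 92 sites and 76.2% over all sites, which is inside that interval. Among the 23 strongest sites the share, at 1 mismatch, was 65.2% (44.9 to 81.2%), against 70.2% of all sites of that strength. Among the other 69 it was 20.3% (12.5 to 31.2%), against 41.0% of all such sites. By position it was 2 of 11 at promoters, 9 of 35 in bodies and 18 of 46 in flanks. Shares by position over all sites are not given here, so these counts do not show a trait of the 9 genes. Windows 1000 bp away from the 92 sites held the core in 1 of 184 (0.543%), against 1.28% of such windows over all sites. The share differed between genes. The core was at 5 of 27 sites of Sufu, 0 of 7 of Hhip, 0 of 6 of Gas1 and 2 of 9 of Ptch1. It was at 3 of 9 sites of Gli3, 5 of 13 of Gli2, 2 of 4 of Smo, 8 of 12 of Gli1 and 4 of 5 of Boc. The intervals cover counting error only, and sites of one gene are not independent of each other. GC content, with a median of 53.5% at the 92 sites and 52.5% over all sites, was higher at the promoter sites (66.3%), and its part in the core's frequency was not tested.

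**Figure D3:**
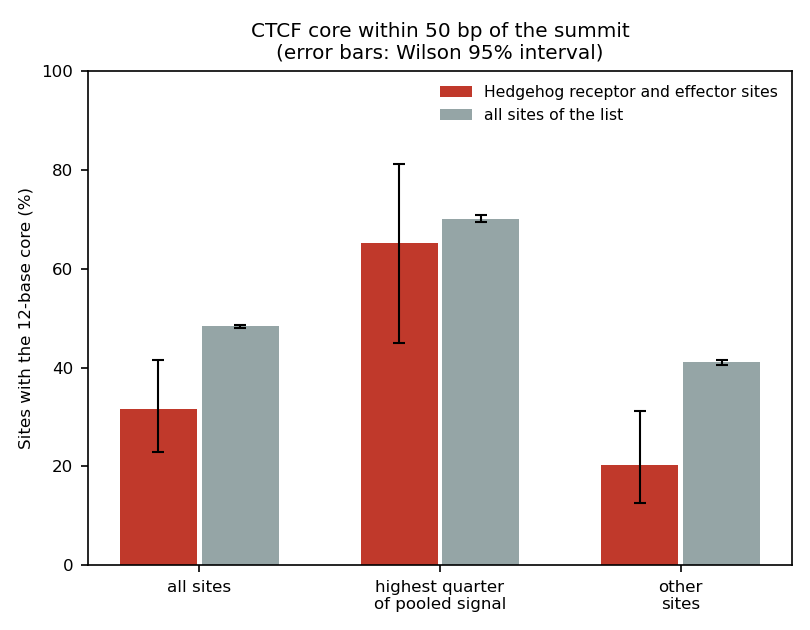
Share of sites with the 12-base core (vertical axis, %) at the 92 sites of the Hedgehog genes (left bar of each pair) and at all 64732 sites (right bar), with Wilson 95% intervals. Among sites below the highest 25% of signal, the Hedgehog genes have 20.3% and the whole list 41.0%, and the intervals do not meet.

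Of the 29 cores, 5 were the same 12-base run, CCAGAAGAGGGC, at 4 sites of the Gli1 locus and the one beyond the 3′ end of Ptch1. Their sequences are shown to compare the bases around the run. The site in Gli1 intron 12 and the site 14718 bp downstream of Gli1 shared 8 of 9 bases before the run and 7 of 9 after it. That downstream site and the Ptch1 site shared 3 of 9 before it and 9 of 9 after it. The site near Mars, 17393 bp downstream of Gli1, shared at most 3 before and 4 after with any other.

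Gli1 intron 11, chr10:127333343-127333372, minus strand: gtctgtgtgCCAGAAGAGGGCgccaagatc
Gli1 intron 12, chr10:127332264-127332293, minus strand: acccgcatgCCAGAAGAGGGCgtcagttcc
Gli1 downstream, chr10:127315168-127315197, plus strand: acccacatgCCAGAAGAGGGCatcagatcc
Gli1 downstream, chr10:127312482-127312511, minus strand: tcatgaagaCCAGAAGAGGGCgcatgattc
Ptch1 downstream, chr13:63507994-63508023, plus strand: cagtagaggCCAGAAGAGGGCatcagatcc

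All 5 summits were in soft-masked sequence, which the reference marks as repeats. Searched on both strands in the same windows, the run was in 5 of 92 sites (5.43%, 2.34 to 12.1%), in 9.42% of all sites and in 0.375% of windows 1000 bp away. Of all sites with the run, 92.7% were masked. B2 elements, a family of short interspersed repeats of rodents, are known to carry a CTCF motif, but the files used here do not name the repeat at any of these sites. Of the 5, 4 were weak, with pooled signals of 22.3 to 59.6, and the site near Mars, at 356, was strong. Over the 92 sites, 15 were masked (16.3%, against 19.5% of all sites), and 6 of those 15 held the core. The weight matrix passed its threshold at all of the 15 but those in Gli2 intron 1, Sufu intron 8 and Hhip exon 1. Some masked sites without the core at 1 mismatch thus had a matrix match.

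**Figure D4:**
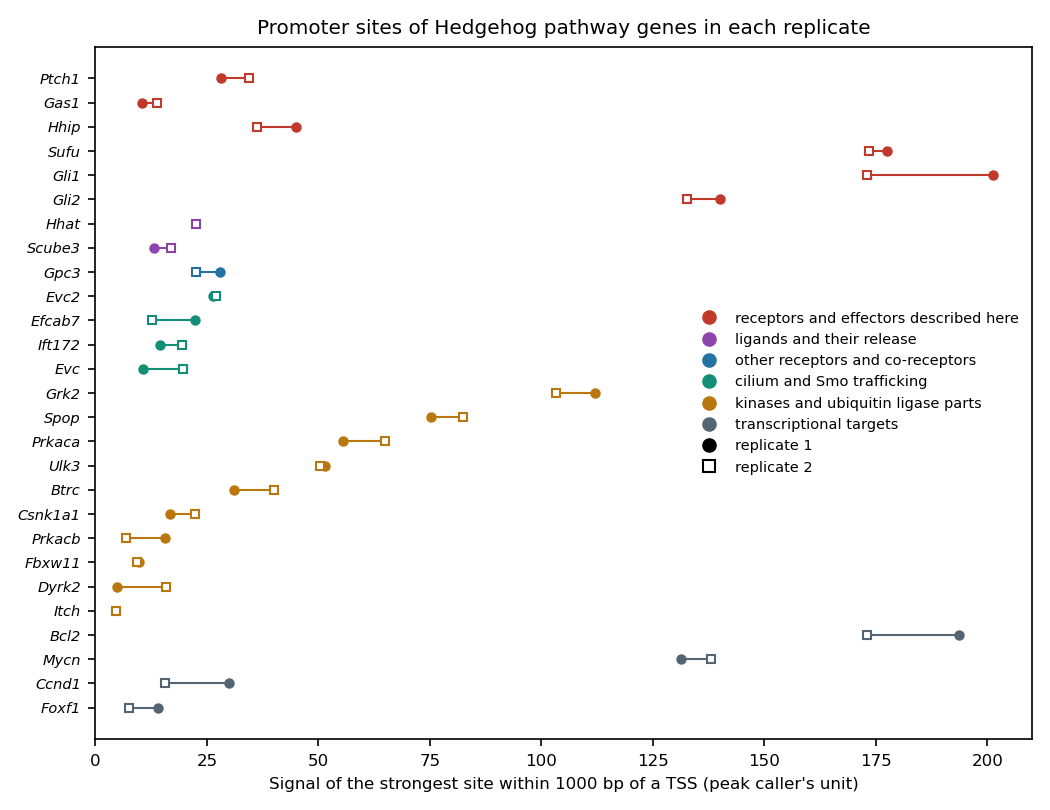
Signal in replicate 1 (filled circles) and replicate 2 (open squares) of the strongest promoter site of each Hedgehog gene that has one, on a linear axis in the peak caller's unit, with the 9 genes' sites in red above the other pathway genes. Gli1, Sufu and Gli2 exceed 130 in both replicates, as do Bcl2 and Mycn, and most others lie below 50; Hhat and Itch have a peak in replicate 2 only.

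Of the other 49 genes listed for the pathway, 21 had a promoter site (42.9%, 30.02 to 56.7%), against 39.8% of all genes. None of the ligand genes Shh, Ihh and Dhh had one, and the nearest site to a start of Shh was 2716 bp away. Among the genes for ligand release, Hhat, which attaches a fatty acid to the ligand, had a site with a pooled signal of 32.1, and Scube3 had signals of 13.2 and 16.9. Of the other co-receptors named, Gpc3 had a promoter site (27.9 and 22.5), and Cdon and Lrp2 had none. Of 11 genes for the cilium and Smo trafficking, 4 had one, and the strongest was at Evc2 (26.4 and 27.0), followed by Efcab7 and Ift172.

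Kinases and ubiquitin ligase parts had a promoter site at 10 of 18 genes. The strongest were at Grk2, a kinase that phosphorylates Smo (112 and 103), Spop, a ubiquitin ligase adaptor for Gli proteins (75.4 and 82.5), and Prkaca, the catalytic subunit of protein kinase A (55.5 and 64.9). Of 8 transcriptional targets 4 had one, led by Bcl2 (194 and 173) and Mycn (131 and 138), with Ccnd1 lower at 30.03 and 15.7. By annotated start, 14 of 21 distinct protein-coding TSSs of the 9 genes had a site within 1000 bp (66.7%, 45.4 to 82.8%), against 34.9% of all such TSSs. Starts of 1 gene often share a site, as the 4 of Sufu do, so this count is not one of independent starts.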

How the data were processed

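Peak lists on the mm10 assembly, per the labels, were the only measurements used. Each replicate and the pool of both has a list of 300000 peaks, from which 2 IDR-thresholded lists, optimal and conservative, were derived. Aligner, peak caller and IDR threshold were not given in the sources used here. For every peak the authors deposited a signal and a −log10 q-value, and a score that the authors deposited was not used. Sites of an IDR list carry the pooled list's signal. The depth in reads is unknown.

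The 9 genes and the list of 49 other pathway genes were chosen with earlier results of these data known. The text names all 9 genes, up to 3 promoter-bound genes with the strongest site in each role group, and protein-coding genes whose start or body a site marks; other genes named were chosen after their values or positions were seen. Chromosomes 1 to 19 and X were analysed, with GENCODE M21 and the GRCm38 genome of RefSeq. A replicate's value is that of its highest peak with a summit within 100 bp of the site's summit. The CTCF core was searched on both strands up to 50 bp on either side of the summit, with at most 1 mismatch. Intervals are Wilson 95% intervals. The core search, the weight matrix and the matching of sites were tested on simulated data. Both weight matrices were added after the data were seen, and the one counted from unmasked sites, which aligned the printed sequences, after the other. Python 3.11.15, numpy 2.4.6, pandas 2.3.3, scipy 1.17.1, pysam 0.24.0 and matplotlib 3.10.9 were used. Alternatives were each replicate alone, the conservative list, the 32366 strongest sites, and other distances, flanks, windows and mismatch limits.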

Additional observations from a re-analysis of the deposited data

Results flagged for a closer look

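The pooled list held 312 peaks in or within 50000 bp of the 9 genes that were in neither IDR list, and 13 of them (4.17%) held the CTCF core, against 4 of 624 windows 1000 bp away (0.641%). Their pooled signal had a median of 7.77 and was at most 30.6. There were 13 such peaks at promoters. Among them were a peak with the core 967 bp inside the start of Boc, with signals of 9.48 in replicate 1 and 12.02 in replicate 2, and a pair without the core at Smo, 220 bp upstream of the start (3.87 in replicate 1, no replicate 2 peak) and 530 bp inside it (3.83 and 7.22).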

How the results depend on the processing

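Promoter sites were found at 4 to 7 of the 9 genes over the alternatives. Gas1 was lost in the conservative list, Gas1 and Ptch1 among the 32366 sites of highest signal, and Gli1 with a limit of 500 bp, while the highest peaks of replicate 2 alone added Boc. With the 32366 strongest sites, 4157 protein-coding genes and 6 of the 49 pathway genes had a promoter site, the bodies of the 9 genes held 9 sites and their flanks 26, and the core was at 21 of 40 sites (52.5%), against 19979 of all (61.7%). With a limit of 5000 bp, 36 pathway genes had a site. Flanks of 25000 bp held 28 sites and flanks of 100000 bp held 83. With no mismatch the core was at 7 of the 92 sites (7.61%) and 8018 of all (12.4%), and with 2 mismatches at 65 (70.7%) and 49298 (76.2%). A weight matrix counted from unmasked sites gave 39 of 92 (42.4%), against 55.7% of all sites, and one counted from all sites gave 31 of 92 (33.7%), against 29300 of all (45.3%). The other alternatives stayed within 1.5 times the reported counts. No paired analysis was possible because there is only 1 group.

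The replicates cite 1 donor, so their spread does not measure variation between mice. The lists give no read depth, so that a site was not listed does not show that binding was absent. In whole lung, a weak site in most cells and a strong site in few cells cannot be told apart, and a site in a flank was not assigned to either neighbouring gene.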

Other observations

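Each of the 3 Gli genes had a gene for an inhibin beta subunit as a neighbour, which was noticed after the positions were seen. For the Gli1 promoter site 518 bp upstream, the nearest start of another protein-coding gene was that of Inhbe (11919 bp). The strong site 8822 bp upstream of Gli1 lay inside Inhbe itself, 3615 bp from its start. The site farthest upstream of Gli1 was nearest to a start of R3hdm2 (350 bp). For the sites upstream of Gli2 the nearest such start was that of Inhbb (328339 bp from the farthest). For the sites downstream of Gli3 it was that of Inhba (248648 bp from the farthest). The strong sites outside the 3 genes thus lay on the side of the inhibin gene in all 3, although Gli1 also had one on its other side, near Mars.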
